A study of Mus musculus with 30 samples.

Results

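The dystrophin-glycoprotein complex was followed through 7 genes, *Dmd*, *Dtna*, *Dag1*, *Sgca*, *Sgcb*, *Sgcd* and *Sspn*, among 18194 genes on the array. Members were chosen by symbol: a probe set counted when the platform annotation gave it exactly 1 of these symbols. The rule found 22 probe sets of 45101, and the probe set with the highest mean log2 value over the 30 arrays stood for its gene. No measured difference between groups entered the rule.

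C2C12 is a mouse myoblast line that forms muscle cells in differentiation medium and turns towards the osteoblast lineage when the bone morphogenetic protein BMP2 is added. C2C12-pMirn378 cells carried a lentiviral vector that overexpresses the microRNA miR-378, and C2C12-pMirn0 cells carried the parent vector without it. Each line is a pool of transduced cells sorted for the fluorescent marker of the vector, so that line and transduction cannot be told apart. Both lines were profiled undifferentiated (d0) and after 3 and 6 days without BMP2 (untreated, the myogenic culture) or with 300 ng/ml BMP2 (the osteogenic culture), giving 10 groups of 3 arrays. The constructs are named as in the study's methods, since the series description lists them in the opposite order. The microRNA itself was not analysed here.

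Dystrophin is the long cytoplasmic rod that links the actin cytoskeleton to the membrane of the muscle fibre. Its C-terminal part binds dystroglycan, which spans the membrane and holds laminin in the extracellular matrix through sugar chains on its outer subunit. The sarcoglycans and sarcospan form a subcomplex in the membrane beside dystroglycan, and dystrobrevin and the syntrophins sit beneath it as a platform for signalling proteins. Loss of dystrophin or of α-, β- or δ-sarcoglycan causes muscular dystrophy. α-Sarcoglycan is largely confined to striated muscle, while dystroglycan and β-sarcoglycan are found in many tissues.

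Upstream windows are shown for *Sgca*, *Sgcb*, *Dag1* and *Sspn*, because these members were called at both days in the myogenic culture of either line and differed in their response to BMP2. In GRCm38.p6 coordinates *Sgca* spans chr11:94962777-94976327, *Sgcb* chr5:73632749-73647737, *Dag1* chr9:108204861-108263977 and *Sspn* chr6:145931873-145965225. The sequences are RefSeq promoter windows of 250 bases before an annotated transcript start (for genes with more than 1 window, the one farthest upstream), 5′ to 3′ on the strand of the gene. Capitals mark the E-box CANNTG, the letters bound by myogenic basic helix-loop-helix factors such as MyoD and myogenin. The *Dag1* window overlaps the outer end of the annotated gene.
Sgca (chr11:94976328-94976577, minus strand): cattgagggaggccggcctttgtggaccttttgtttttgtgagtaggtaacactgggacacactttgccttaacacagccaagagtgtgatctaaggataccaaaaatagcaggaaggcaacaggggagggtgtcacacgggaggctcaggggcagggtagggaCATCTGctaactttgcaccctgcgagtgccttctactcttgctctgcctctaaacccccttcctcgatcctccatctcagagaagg
Sgcb (chr5:73647738-73647987, minus strand): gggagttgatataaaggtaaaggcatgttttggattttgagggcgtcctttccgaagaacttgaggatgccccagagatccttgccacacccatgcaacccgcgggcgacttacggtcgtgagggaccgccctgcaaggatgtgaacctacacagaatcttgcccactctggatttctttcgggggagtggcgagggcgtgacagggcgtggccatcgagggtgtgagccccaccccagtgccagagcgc
Dag1 (chr9:108263959-108264208, minus strand): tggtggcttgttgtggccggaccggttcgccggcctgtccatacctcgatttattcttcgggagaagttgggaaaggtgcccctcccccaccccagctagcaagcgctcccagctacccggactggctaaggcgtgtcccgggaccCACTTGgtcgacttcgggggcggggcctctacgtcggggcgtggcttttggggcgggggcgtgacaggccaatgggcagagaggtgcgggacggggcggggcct
Sspn (chr6:145931623-145931872, plus strand): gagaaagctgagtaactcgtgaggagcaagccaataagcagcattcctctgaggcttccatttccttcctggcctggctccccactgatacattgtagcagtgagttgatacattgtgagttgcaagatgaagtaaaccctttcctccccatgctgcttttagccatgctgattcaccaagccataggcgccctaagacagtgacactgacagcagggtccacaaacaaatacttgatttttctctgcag

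The *Sgca* window held 1 match (CATCTG), the *Dag1* window 1, and the *Sgcb* and *Sspn* windows 0. The other *Sspn* window, which is not shown, held 1 match (CAGTTG). At least 1 CANNTG is present in 66.2% of all 32851 windows of this length (both strands, since the letters read the same on each), with a mean of 1.16 matches. The narrower E-box CAGCTG, a subset of these matches present in 13.0% of windows, and the MEF2 site, searched on both strands and present in 0.508%, had 0 matches in all 9 windows of 6 members. *Dtna* had no entry. A match describes letters in the window only.

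The median intensity of single arrays lay between 68.0 and 82.7, and the median of all values was 76.5. No detection call accompanied the values, so that a probe set below that median is described as dim. Summed over 6 muscle cell markers, intensity was 29464 to 29649 on the 3 pMirn0 d0 arrays, 62242 to 71299 at d3 untreated and 19387 to 20875 at d6 with BMP2. The markers did not all follow the sum. At d3 untreated over d0, *Myog*, *Des*, *Ckm* and *Acta1* were called higher, *Myf5* lower, and *Myod1* was not called. At d6 with BMP2 over d0, *Myf5* was called higher and the other 5 lower. Summed over the 3 osteoblast markers measured, it was 180.0 to 265 at d0, 181 to 214 at d3 untreated and 3341 to 3563 at d3 with BMP2. Of these, *Alpl* and *Sp7* rose with BMP2, while *Ibsp* did not pass. Summed over 3 adipocyte markers it was 32.0 to 45.7 at d0 and 2562 to 3042 at d3 with BMP2, where *Fabp4* alone was called. All 3 endothelial markers were dim in every group except 1 marker in pMirn378 d6 untreated. In such bulk cultures fewer cells of a type and less RNA per cell cannot be told apart. Each p-value measures only the spread between triplicate samples.

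Without BMP2, *Dag1*, *Sgca*, *Sgcb* and *Sspn* were raised over d0 at d3 and d6 in both lines. *Sgcd*, also a transmembrane member, was not called there in either line. *Dmd* rose by d6. On its brightest probe set *Dtna* rose only at d3 in pMirn0 cells, while other *Dtna* probe sets rose at both days in both lines. With BMP2, only *Sgca* and *Sspn* rose in pMirn0 cells at either day. A member was called where the Benjamini-Hochberg adjusted p of the fit was under 0.005 and the log2 difference exceeded 0.6 in size. By that rule 5 of 7 were called at d3 and 5 of 7 at d6 over d0 in untreated pMirn0 cells, all higher, where 22.6% and 24.2% of all genes were called in either direction. With BMP2 it was 2 of 7 at either day, both higher, against 22.9% at d3 and 22.1% at d6. In pMirn378 cells 5 of 7 were called at either day untreated, all higher, against 23.5% and 24.4%. With BMP2 the count was 3 of 7 at either day, 2 higher and 1 lower, against 25.1% and 24.7%. Between d3 and d6, 0 members were called untreated (2.50% of genes in pMirn0 and 2.58% in pMirn378 cells) or with BMP2 in pMirn0 cells (3.61%), and 1 with BMP2 in pMirn378 cells (7.84%). The median log2 difference over the 7 members was 1.78 at d3 and 1.57 at d6 untreated, against 0.005 and -0.066 over all genes. With BMP2 the member medians were 0.45 and 0.97, against 0.025 and -0.007. The study's own rule, which takes the adjusted p at d6 and the mean of both days' ratios, called 6 of 7 untreated (all but *Sgcd*, against 11.4% of genes called higher) and *Sgca* and *Sspn* with BMP2 (against 11.5%).

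**Figure D1:**
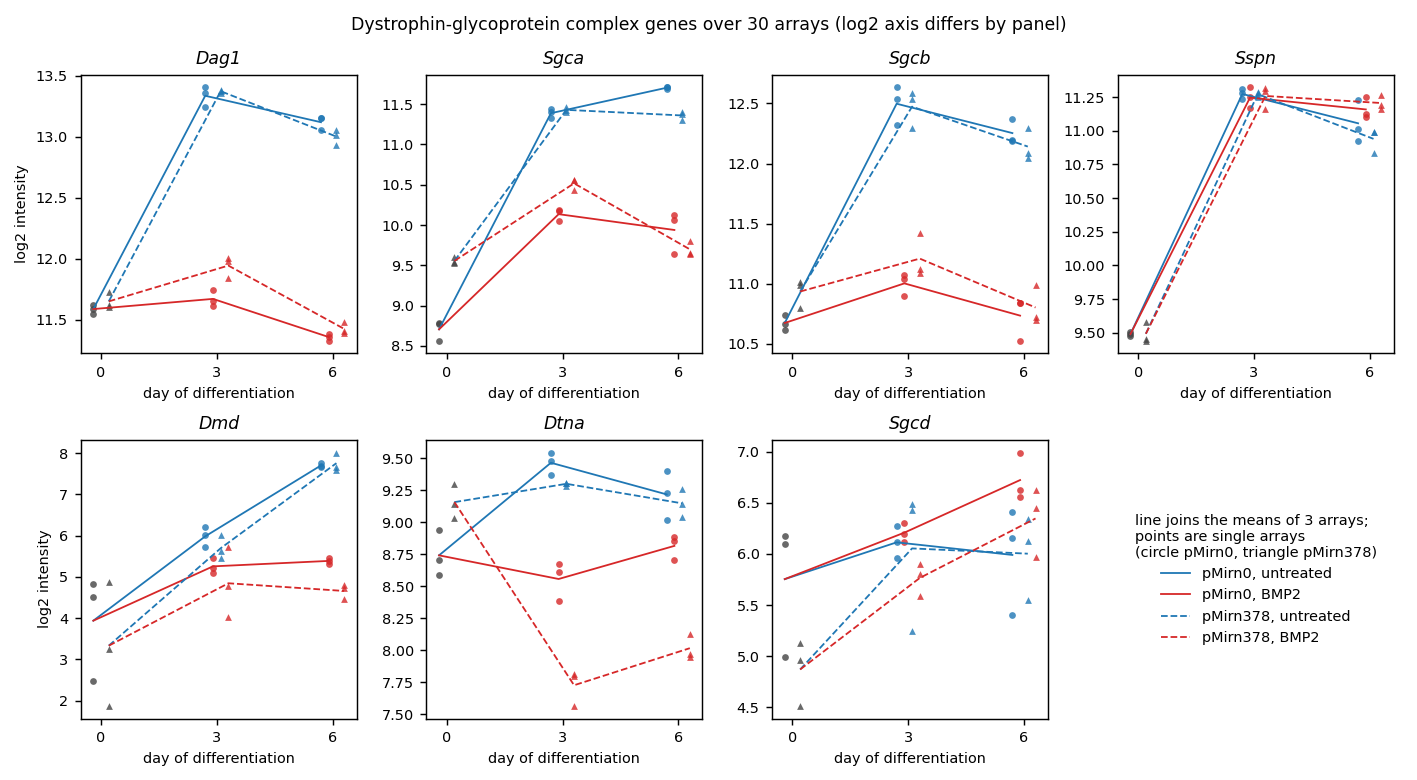
Log2 intensity (y axis, scale differs by panel) of the 7 genes against day of differentiation (x axis). Points are single arrays, circles for pMirn0 and triangles for pMirn378, and lines join the means of 3 arrays, blue untreated and red with BMP2. *Dag1* and *Sgcb* separate by treatment, *Sspn* rises in both cultures from 719 to at least 2136 in pMirn0 cells, and *Dtna* is lowest in pMirn378 cells with BMP2.

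Dystroglycan, the laminin receptor at the centre of the complex, rose in the myogenic culture, and its differences from d0 with BMP2 did not pass on the brightest probe set. The 3 *Dag1* arrays of pMirn0 cells read 3153, 2999 and 3088 at d0. Untreated they read 10531, 9679 and 10859.8 at d3 and 9118, 9093 and 8505 at d6. With BMP2 they read 3434, 3219 and 3141 at d3 and 2630.0, 2677 and 2574 at d6. Every untreated array at d3 and d6 lay above any d0 or BMP2 array. The rise was 3.36-fold at d3 (log2 1.75, SE 0.063, adjusted p = 8.23e-16) and 2.89-fold at d6 (adjusted p = 7.86e-15). The BMP2 arrays differed from d0 by 0.08 on the log2 scale at d3 (adjusted p = 0.37) and by -0.23 at d6 (adjusted p = 0.00615), neither of which passed. In pMirn378 cells *Dag1* read 3109, 3147 and 3400.3 at d0 and 10655, 10521 and 10674 at d3 untreated. At d6 untreated it read 8524, 8297 and 7806. With BMP2 it read 3673, 4123 and 4045 at d3 and 2860.0, 2713 and 2685 at d6. The untreated arrays again lay above all others, with a rise of 3.30-fold at d3 and 2.55-fold at d6 (log2 1.72 and 1.35). At d3 with BMP2 all 3 pMirn378 arrays lay above d0, by 0.29 on the log2 scale (adjusted p = 0.000621), which missed the size limit. There 1426779_x_at was called higher (0.74, adjusted p = 0.000417), while 1423872_a_at and 1456131_x_at gave 0.49 and 0.45, below that limit. At d6 with BMP2 the brightest gave -0.23 (adjusted p = 0.00637). The remaining 3 *Dag1* probe sets also rose in untreated pMirn0 cells, by 1.57 to 1.96 on the log2 scale at d3 and by 1.24 to 1.68 at d6.

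β-Sarcoglycan, the subunit around which the sarcoglycan subcomplex assembles, followed the course of dystroglycan. *Sgcb* read 1625, 1566 and 1704 at d0 in pMirn0 cells. Untreated it read 5939, 6364 and 5123 at d3 and 5309, 4674 and 4691 at d6. The BMP2 arrays read 1909.6, 2101 and 2146 at d3 and 1825, 1473 and 1832 at d6. The untreated arrays again lay above all others. The rise was 3.55-fold at d3 (log2 1.83, SE 0.12, adjusted p = 2e-11) and 2.99-fold at d6 (log2 1.58, adjusted p = 2.12e-10). With BMP2 the log2 differences from d0 were 0.33 at d3 (adjusted p = 0.0356) and 0.06 at d6, and neither passed. In pMirn378 cells the 3 arrays read 2065, 1781 and 2034 at d0, 5943, 5029 and 6158 at d3 untreated and 4223, 4350.4 and 5015 at d6 untreated. With BMP2 they read 2222, 2170.3 and 2744 at d3 and 1655, 1685 and 2033 at d6. These were rises of 2.91-fold at d3 and 2.31-fold at d6 untreated. Both further *Sgcb* probe sets rose in untreated pMirn0 cells, by 1.25 and 1.90 at d3 and by 1.41 and 1.84 at d6 on the log2 scale.

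α-Sarcoglycan, which is specific to striated muscle, rose in both cultures of pMirn0 cells, more so without BMP2. *Sgca* read 439, 379 and 437 at d0. Untreated it read 2701, 2572 and 2775 at d3 and 3353, 3309 and 3352 at d6. In the presence of BMP2 it read 1057, 1153 and 1166 at d3 and 1066, 797 and 1112 at d6. The 5 groups fell into 3 separate ranges, with d0 lowest, BMP2 between and untreated highest. Untreated, the rise was 6.43-fold at d3 (log2 2.68, SE 0.093, adjusted p = 3.98e-16) and 8.0-fold at d6 (log2 3.00, adjusted p = 7.76e-17). With BMP2 it was 2.70-fold at d3 (adjusted p = 2.1e-11) and 2.35-fold at d6 (adjusted p = 2.5e-10). In pMirn378 cells *Sgca* began higher, at 745, 737 and 775 at d0, and read 2761, 2702 and 2817 at d3 untreated and 2522, 2703 and 2665 at d6 untreated. With BMP2 it read 1382, 1513 and 1506 at d3 and 890.0, 804 and 801 at d6. The rise of pMirn378 cells was 3.67-fold at d3 and 3.50-fold at d6 untreated, and 1.95-fold at d3 with BMP2 (log2 0.96, adjusted p = 1.3e-08). By d6 with BMP2 it stood 0.14 above d0 on the log2 scale (adjusted p = 0.262), having fallen 1.76-fold from d3 (adjusted p = 7.38e-07).

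Sarcospan, the small membrane protein that binds the sarcoglycans, rose both with and without BMP2. In pMirn0 cells *Sspn* read 712, 719 and 726 at d0. It read 2408, 2536 and 2482 at d3 untreated and 2299, 2562 and 2433 at d3 with BMP2. At d6 it read 2069.8, 1942 and 2397 untreated and 2198, 2233 and 2431 with BMP2. Within each day the ranges of both cultures overlapped, and each array lay above every d0 array. The rise at d3 was 3.44-fold untreated (log2 1.78, SE 0.075, adjusted p = 1.04e-14) and 3.38-fold with BMP2 (log2 1.76, adjusted p = 1.76e-14). At d6 it was 2.96-fold untreated and 3.18-fold with BMP2. The log2 difference of BMP2 over untreated was -0.03 at d3 (95% confidence interval -0.18 to 0.13) and 0.10 at d6 (-0.05 to 0.26). pMirn378 cells read 702, 696 and 765 at d0, 2432, 2503 and 2483 at d3 untreated and 2292, 2552 and 2512 at d3 with BMP2. At d6 they read 1826, 2036 and 2038 untreated and 2334, 2289 and 2466 with BMP2. There BMP2 over untreated was -0.01 at d3 (-0.17 to 0.14) and 0.27 at d6 (0.11 to 0.42, adjusted p = 0.00747), which did not pass. The second *Sspn* probe set gave log2 differences from d0 in pMirn0 cells of 1.34 untreated and 1.41 with BMP2 at d6.

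δ-Sarcoglycan, the partner of β-sarcoglycan in the core of the subcomplex, gave a dim signal and was called in 1 comparison. The *Sgcd* probe set lay below the median of all values on 19 of 30 arrays. In pMirn0 cells it read 31.8, 72.3 and 68.3 at d0, and untreated 69.2, 77.1 and 62.1 at d3 and 42.3, 71.4 and 84.9 at d6. The BMP2 arrays read 73.4, 69.5 and 79.1 at d3 and 93.8, 127 and 98.4 at d6. The untreated ranges overlapped d0, while the d6 BMP2 arrays lay above it with a log2 difference of 0.97 that did not pass (adjusted p = 0.0259). In pMirn378 cells it read 35.0, 22.9 and 31.3 at d0, 37.8, 89.8 and 86.2 at d3 untreated and 69.6, 46.8 and 80.8 at d6 untreated. In the presence of BMP2 it read 55.9, 48.2 and 59.6 at d3 and 98.5, 62.6 and 87.3 at d6. The rise at d6 with BMP2 was 2.78-fold (log2 1.48, adjusted p = 0.000896), and it no longer passed when values under 50 were set to 50 or without pMirn378 d0 replicate 2 (adjusted p = 0.00785) or d6 BMP2 replicate 1 (adjusted p = 0.00689). The untreated log2 differences of pMirn378 cells, 1.18 at d3 (adjusted p = 0.00632) and 1.13 at d6 (adjusted p = 0.00841), did not pass. They were called with the filter on dim probe sets (adjusted p = 0.0031 and 0.00421), the d3 value also with trended and robust eBayes (0.00499) and without pMirn378 d3 untreated replicate 1 (log2 1.59, adjusted p = 0.000409), and the d6 value without pMirn378 d6 untreated replicate 2 (adjusted p = 0.00484).

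Dystrophin itself rose from a dim start. *Dmd*, a gene of 2390387 bases at chrX:82814664-85205050, lay below the median of all values on 24 of 30 arrays. In pMirn0 cells it read 5.58, 22.9 and 28.3 at d0, 64.3, 74.1 and 53.0 at d3 untreated and 206, 216 and 202 at d6 untreated. With BMP2 it read 37.1, 34.1 and 43.9 at d3 and 39.8, 41.9 and 43.9 at d6. The d6 untreated arrays stood above all others. The rise by d6 was 13.5-fold (log2 3.76, 95% confidence interval 2.61 to 4.91, adjusted p = 7.2e-06). At d3 the log2 difference of 2.04 did not pass (SE 0.55, adjusted p = 0.00545). It was called with the replicate block (adjusted p = 0.00469), the filter on dim probe sets (0.00266), trended and robust eBayes (0.00267), an offset of 16 (0.000581) and without pMirn0 d0 replicate 3 (0.00232). From d3 to d6 the difference was 1.72 (adjusted p = 0.0559), and whether the steps differ in size was not tested. With BMP2 the difference of 1.45 at d6 did not pass (adjusted p = 0.0486). In pMirn378 cells *Dmd* read 9.58, 29.1 and 3.67 at d0, 49.1, 64.6 and 43.6 at d3 untreated and 192, 203 and 258 at d6 untreated. The BMP2 arrays read 27.4, 53.3 and 16.3 at d3 and 26.5, 22 and 27.7 at d6. The rise was 5.13-fold at d3 (adjusted p = 0.00151) and 21.4-fold at d6 (log2 4.42, adjusted p = 7.37e-07) untreated. The d3 call was lost with values under 50 set to 50, and without pMirn378 d0 replicate 1 or 3 or pMirn378 d3 untreated replicate 2 (adjusted p 0.00633 to 0.0184). All d0 arrays of either line read under 50, so the size of each rise over d0 depends on how dim values are treated. With values under 50 set to 50, untreated pMirn378 cells gave log2 0.12 at d3 over d0 and 1.99 at d6 over d3. Of the other 3 *Dmd* probe sets, read in pMirn0 cells at d6 untreated over d0, 1417307_at (log2 4.31, adjusted p = 0.00189) and 1443315_at (2.96, adjusted p = 0.000518) rose, and 1430320_at gave 1.36 (adjusted p = 0.386). Both 1443315_at and 1430320_at were dim on all 30 arrays. At d3 over d0 untreated, 1443315_at also rose (2.76, adjusted p = 0.00111), and 1417307_at gave 2.65 (adjusted p = 0.0547). In pMirn378 cells the d3 untreated rise did not pass on any of these. It was 2.71 on 1417307_at (adjusted p = 0.0453), 1.65 on 1443315_at (0.0428) and 1.27 on 1430320_at (0.417). The d6 untreated rise of pMirn378 cells passed on 1417307_at and 1443315_at but not on 1430320_at (1.72, adjusted p = 0.251).

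**Figure D2:**
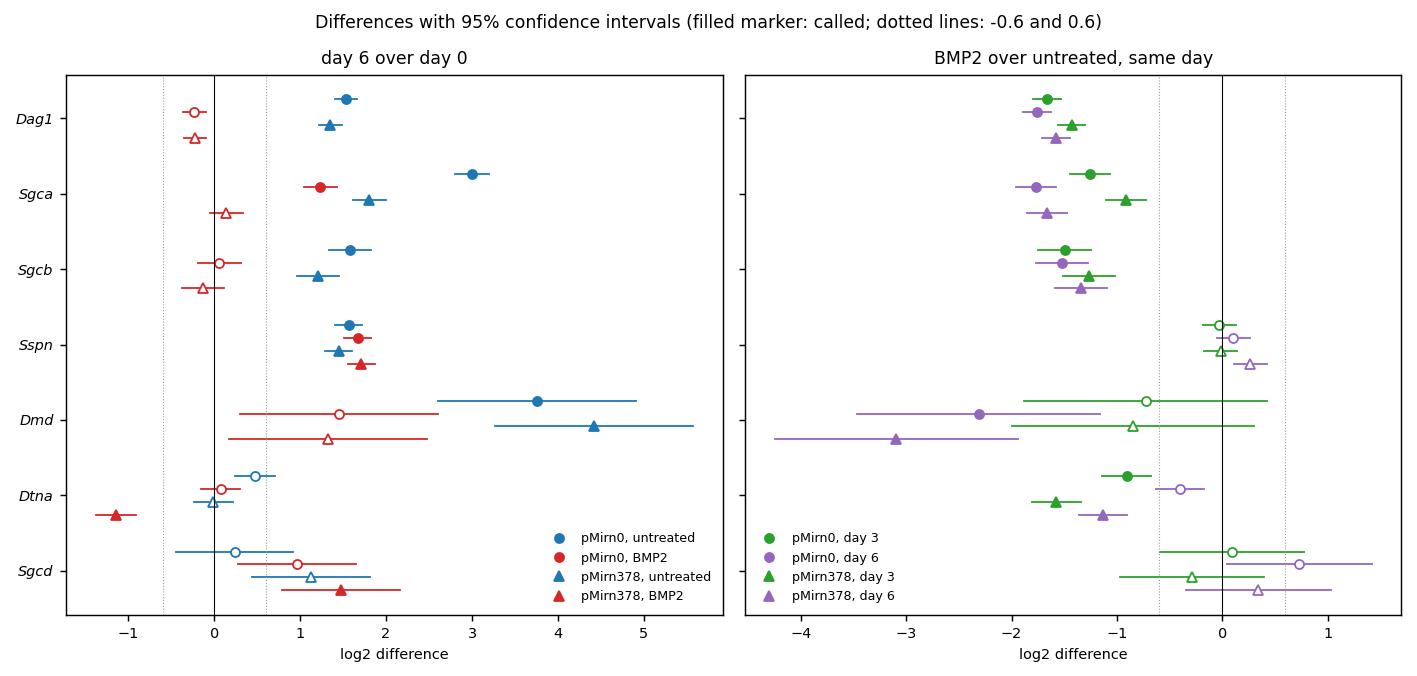
Log2 differences (x axis) of the 7 genes with 95% confidence intervals, at d6 over d0 in the left panel and BMP2 over untreated at the same day in the right panel. Filled markers passed the rule for calls. In the right panel *Dag1*, *Sgca* and *Sgcb* lie left of -0.6 in all 4 comparisons, and *Sspn* lies between -0.03 and 0.27.

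Comparing the cultures at the same day addressed which members BMP2 affected. Dystroglycan and both bright sarcoglycans were lower with BMP2 at d3 and d6 in either line. In pMirn0 cells the fall was 3.17-fold at d3 and 3.39-fold at d6 for *Dag1* (log2 -1.66 and -1.76), 2.82-fold and 2.87-fold for *Sgcb* (-1.50 and -1.52), and 2.39-fold and 3.40-fold for *Sgca* (-1.25 and -1.77). *Dmd* was lower at d6 by 4.97-fold (log2 -2.31, adjusted p = 0.00194), a call that was lost when any 1 of the 6 arrays compared was left out (adjusted p 0.00631 to 0.00793). The other *Dmd* probe sets did not pass there, with -2.74 on 1417307_at (adjusted p = 0.046), -0.48 on 1443315_at (adjusted p = 0.625) and -0.37 on 1430320_at (adjusted p = 0.848). At d3 its difference of -0.73 did not pass (adjusted p = 0.391). *Dtna* was lower at d3 by 1.88-fold (adjusted p = 6.36e-07) and gave -0.40 at d6 (adjusted p = 0.00614). Thus 4 of 7 members were lower at d3 and 4 of 7 at d6, against 8.40% and 10.5% of all genes. In pMirn378 cells 4 of 7 were lower at d3 and 5 of 7 at d6, against 9.75% and 11.0%. Their log2 differences at d6 were -1.58 for *Dag1*, -1.34 for *Sgcb*, -1.66 for *Sgca*, -3.10 for *Dmd* (adjusted p = 9.59e-05) and -1.13 for *Dtna*. For *Dmd* in pMirn378 cells 1417307_at also passed at d6. There 1443315_at (-1.43, adjusted p = 0.0882) and 1430320_at (-1.56, adjusted p = 0.326) did not. The comparisons of BMP2 with untreated and of untreated with d0 share the untreated arrays.

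α-Dystrobrevin, the cytoplasmic relative of dystrophin that binds syntrophins, differed between the lines when BMP2 was present. *Dtna* spans chr18:23310006-23659719. Its brightest probe set, 1456069_at, read 489.8, 384 and 417 at d0 in pMirn0 cells. Untreated it read 715, 747 and 661 at d3 and 601, 518 and 677 at d6. In the presence of BMP2 it read 390.4, 408 and 335 at d3 and 472, 418 and 463 at d6. All untreated arrays lay above the d0 range, and the difference passed at d3 (1.65-fold, log2 0.72, adjusted p = 1.28e-05). At d6 the difference of 0.48 missed the size limit (adjusted p = 0.00134), and both BMP2 groups overlapped d0. In pMirn378 cells it read 564, 524 and 630.0 at d0, 634, 635 and 623 at d3 untreated and 564, 527 and 615 at d6 untreated. With BMP2 it read 225, 223 and 189 at d3 and 246, 251 and 279.9 at d6. Those 6 arrays lay below all 24 others. They corresponded to a fall from d0 of 2.70-fold at d3 (log2 -1.43, adjusted p = 3.62e-10) and 2.21-fold at d6 (log2 -1.14, adjusted p = 1.36e-08).

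Between the lines, *Dtna* with BMP2 was lower in pMirn378 cells by 1.78-fold at d3 (log2 -0.83, 95% confidence interval -1.06 to -0.60, adjusted p = 1.39e-05) and by 1.74-fold at d6 (log2 -0.80, -1.03 to -0.57, adjusted p = 3.8e-05). It was the 1 member of 7 lower at either day, against 1.87% of all genes at d3 and 1.31% at d6. Without BMP2 the line difference was -0.16 at d3 and -0.07 at d6, and it was 0.42 at d0 (adjusted p = 0.0395). The test of whether the BMP2 effect differed between the lines gave -0.67 at d3 (adjusted p = 0.0153) and -0.73 at d6 (adjusted p = 0.00769) for *Dtna*. Neither passed, and 0 of 7 members were called by that test at either day, against 2.00% and 2.02% of genes. The markers moved as well. At d6 with BMP2 the summed intensity of the muscle cell markers was 11992 to 13490 in pMirn378 cells against 19387 to 20875 in pMirn0 cells, with 6 of 6 above the median of all values in either line. That of the osteoblast markers was 5895 to 7549 against 2699 to 3089, and that of the adipocyte markers 2603 to 2716 against 3994 to 4209. At d3 with BMP2 the muscle cell sum was 19482 to 21653 in pMirn378 cells against 22099 to 24552 in pMirn0 cells. There *Ckm* was called higher in pMirn378 cells, and *Myf5* and *Myog* lower. The osteoblast sum was 6174 to 6937 against 3341 to 3563, and the adipocyte sum 1571 to 1733 against 2562 to 3042. Of 4 smooth muscle markers, *Smtn* was called higher in pMirn378 cells with BMP2 at both days (means 1177 against 595 at d3 and 736 against 458 at d6), while the sums of that list overlapped. The part of these shifts in the *Dtna* result was not tested.

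The *Dtna* probe sets disagreed over time. With 1425292_at the pMirn0 mean was 225 at d0, 959 and 946 untreated and 147 and 141 with BMP2 at d3 and d6. The rise at d3 was 2.09 on the log2 scale, and BMP2 over untreated was -2.76 at d3 and -2.74 at d6. With 1419223_a_at the rise at d3 was 1.74 and BMP2 over untreated -2.45 and -2.39, and with 1426066_a_at they were 1.69, -1.64 and -1.71. All of these were called. Untreated over d0, the same probe sets gave 2.07, 1.53 and 1.36 at d6 in pMirn0 cells. In pMirn378 cells they gave 1.95, 1.77 and 1.62 at d3 and 1.76, 1.53 and 1.39 at d6, and each of these passed. In contrast, 1427588_a_at gave -0.23 at d3 and -0.29 at d6 untreated over d0, neither called, and 0.09 and -0.01 for BMP2 over untreated. The second brightest, 1429768_at, ran with the brightest and gave line differences with BMP2 of -0.93 at d3 (adjusted p = 2.91e-06) and -0.64 at d6 (adjusted p = 0.000435), both called. On that probe set the BMP2 effect also differed between the lines at d3 (-0.84, adjusted p = 0.00217). For the next 4 probe sets the line difference at d3 with BMP2 was negative, from -0.49 to -0.67, and none passed (adjusted p 0.00982 to 0.113). At d6 with BMP2 they gave -0.36 on 1425292_at (adjusted p = 0.345), -0.40 on 1419223_a_at (0.0709), -0.71 on 1427588_a_at (0.0128) and -0.32 on 1426066_a_at (0.446), none called. The last, 1453625_at, was dim on all 30 arrays.

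**Figure D3:**
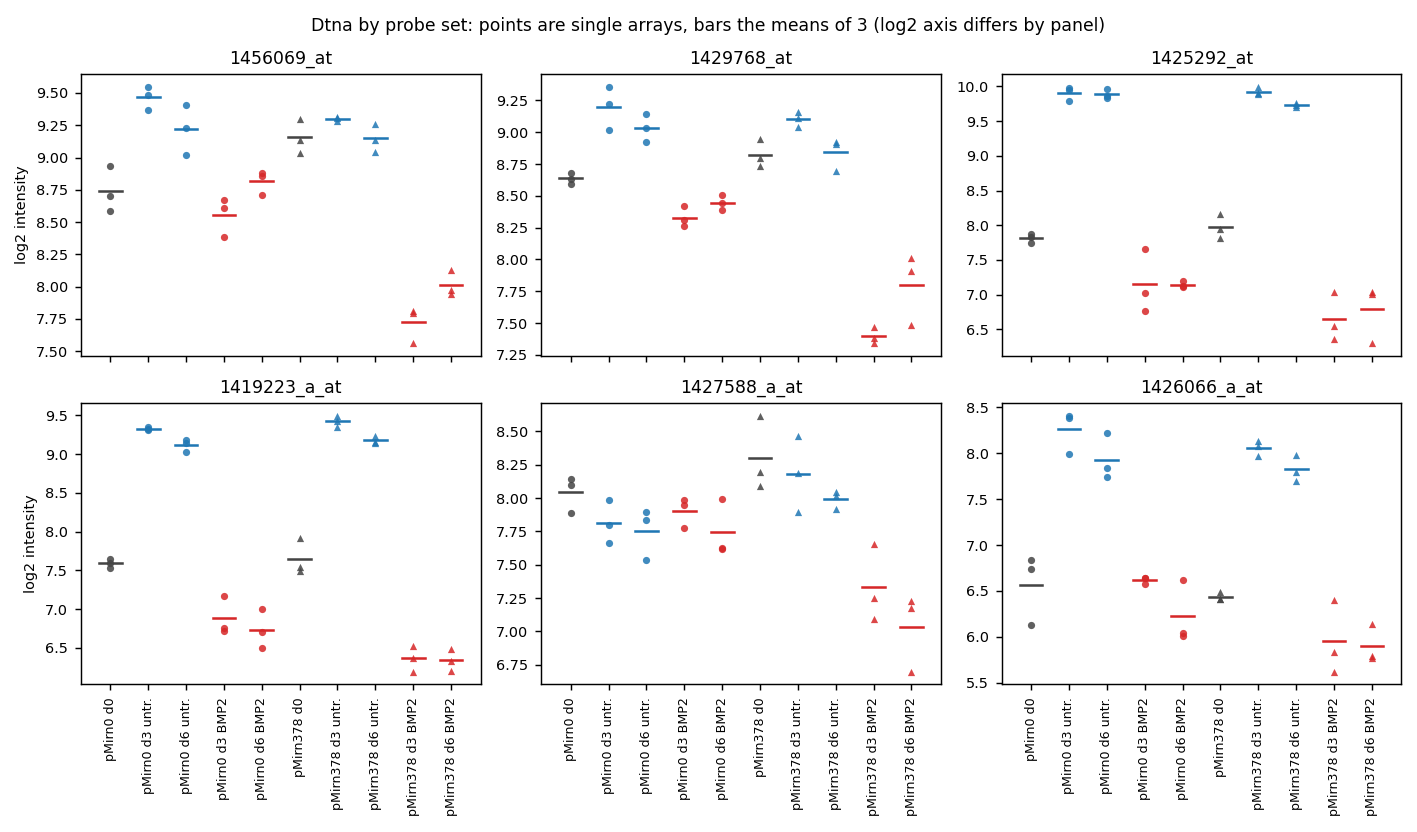
Log2 intensity (y axis, scale differs by panel) of 6 *Dtna* probe sets in the 10 groups (x axis, untr. for untreated). Points are single arrays, circles for pMirn0 and triangles for pMirn378, and bars are means of 3 arrays. The untreated groups of 1425292_at reach a pMirn0 mean of 959 from 225 at d0, whereas the d3 untreated mean of 1427588_a_at is below that at d0 (226 against 265).

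Across the other line comparisons, *Sgca* at d0 was the 1 member called. It was 1.80-fold higher in pMirn378 cells (log2 0.85, 95% confidence interval 0.66 to 1.04, adjusted p = 6.96e-06), where 0.115% of genes were called higher. All 3 pMirn378 arrays lay above all 3 pMirn0 arrays. Of the 9 muscle state genes *Ttn* was also called higher there (log2 0.66, adjusted p = 0.000124), and its part in the *Sgca* result was not tested. The difference was 0.04 at d3 untreated, -0.34 at d6 untreated (adjusted p = 0.0924), 0.38 at d3 with BMP2 (adjusted p = 0.00734) and -0.24 at d6 with BMP2 (adjusted p = 0.14), none of which passed. Untreated, 0 of 7 members were called between the lines at d3 or d6, against 0.720% and 0.247% of genes. *Dag1* at d3 with BMP2 differed by 0.27 (0.14 to 0.40, adjusted p = 0.00496), below the size limit. *Sspn* line differences lay between -0.12 and 0.05 in the 5 comparisons.

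Whether the change from d0 differed between the lines was tested as an interaction chosen after the values were seen. *Sgca* changed less in pMirn378 cells by -0.81 at d3 (SE 0.13, adjusted p = 0.00168) and -1.20 at d6 (adjusted p = 1.04e-05) untreated and by -1.09 at d6 with BMP2 (adjusted p = 1.39e-05). At d3 with BMP2 the value was -0.47 (adjusted p = 0.0305). The d3 untreated call was lost (adjusted p 0.00503 to 0.00693) without pMirn0 d0 replicate 2, pMirn0 d3 untreated replicate 1 or 3, pMirn378 d0 replicate 3, or pMirn378 d3 untreated replicate 1 or 2. *Dtna* gave -1.25 at d3 (SE 0.16, adjusted p = 1.6e-05) and -1.22 at d6 (adjusted p = 3.2e-05) with BMP2. Of its other probe sets, 1429768_at was also called (-1.12 and -0.83), and the other 5 were not, with -0.83 to 0.16 at d3 and -0.97 to -0.19 at d6 (adjusted p 0.0239 to 0.977). The untreated values of -0.58 and -0.49 on the brightest did not pass. The share of all genes called lower in these tests was 0.137% at d3 and 0.121% at d6 untreated, and 1.51% and 0.885% with BMP2. All 4 tests use the same d0 arrays, on which *Sgca* was higher in pMirn378 cells. *Ttn*, higher there too, gave -0.96 at d6 untreated (adjusted p = 0.000126) and -0.65 and -1.26 at d3 and d6 with BMP2, all called lower.

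**Figure D4:**
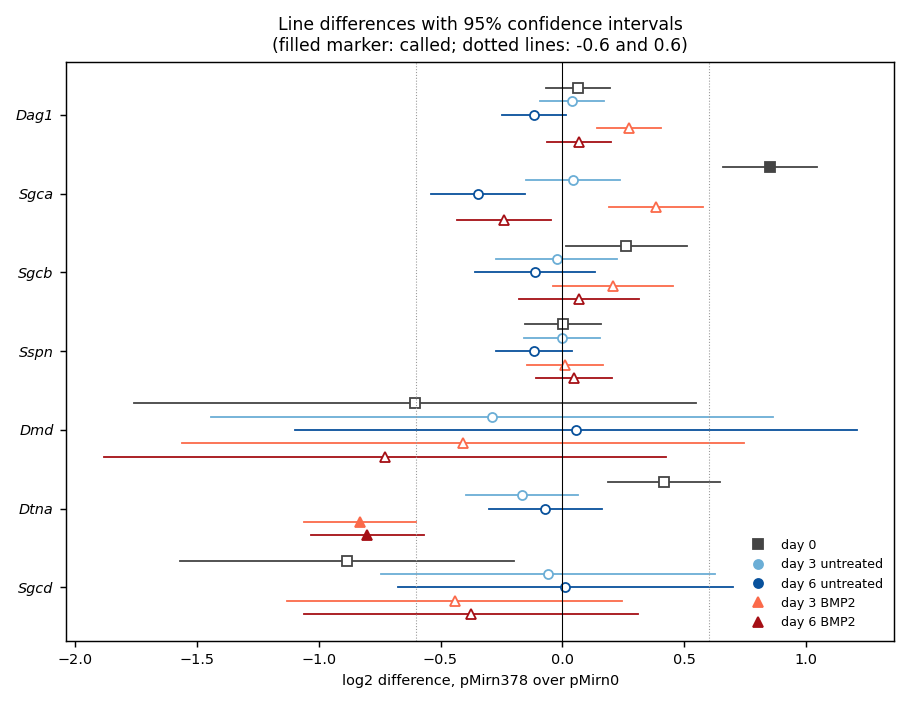
Log2 difference of pMirn378 over pMirn0 (x axis) for the 7 genes at d0 and in the 4 differentiated conditions, with 95% confidence intervals. Filled markers passed the rule for calls, namely *Sgca* at d0 (0.85) and *Dtna* with BMP2 at d3 (-0.83) and d6 (-0.80). The intervals of the dim genes *Dmd* and *Sgcd* are the widest.

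Likeness between members was described over all conditions. Over the 10 group means, described with Pearson's r on the log2 scale, *Dag1* and *Sgcb* ran together (r = 0.995), *Sgca* with *Sgcb* at 0.926 and *Sgca* with *Dag1* at 0.894. *Sspn* correlated at 0.360 with *Dag1* and at -0.163 with *Dtna*. The span between the lowest and highest group was 4.42 for *Dmd*, 3.00 for *Sgca*, 2.01 for *Dag1*, 1.85 for *Sgcd*, 1.83 for *Sgcb*, 1.78 for *Sspn* and 1.74 for *Dtna*. Among genes whose mean lay at or above the median of all values, the profiles most like *Dag1* were *Klc1* (r = 0.998), *Sgcb* and *Ccnd3* (0.994), and those most like *Sgcb* were *Klc1* (0.995), *Dag1* and *Wdr26* (0.991). *Sgca* was nearest to *Vps33a* (0.991), *Pgam2* (0.984) and *Homez* (0.980). *Sspn* was nearest to *Sipa1l1* (0.990), *Ptprf* (0.990) and *Washc1* (0.988). *Dmd* was nearest to *Tmem242* (0.981), *Lztfl1* (0.981) and *Bmpr1a* (0.978), *Dtna* to *Nol7* (0.968), *Med6* (0.962) and *Golm2* (0.962), and *Sgcd* to *Apobec1* (0.961), *2810002D19Rik* (0.953) and *Ddx19b* (0.950). These are the highest of the coefficients with 10694 or 10695 other genes, and the points share the d0 arrays and the course of differentiation.

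The binding partners of the complex included genes called in both directions. Of 13 partners measured, 3 rose and 2 fell in untreated pMirn0 cells at d6, and 2 rose and 2 fell with BMP2, against 24.2% and 22.1% of all genes called in either direction. Their median log2 differences were -0.01 and 0.09. Caveolin-3, the muscle caveolin, rose most. *Cav3* had a pMirn0 mean of 125 at d0, 1895 and 3398 untreated and 183 and 144 with BMP2 at d3 and d6 (untreated log2 4.78 at d6, SE 0.177). It was also the 1 partner of 13 called between the lines with BMP2 (log2 -1.65 at d6, adjusted p = 1.25e-06), where 1.31% of all genes were called lower. The syntrophins, adaptors that bind dystrophin and dystrobrevin, split. β1-Syntrophin (*Sntb1*) had a mean of 307 at d0 and rose to 2803 and 1353 untreated, whereas β2-syntrophin (*Sntb2*) fell from 486 to 232 and 272 (log2 -1.07 and -0.84), both in pMirn0 cells. In pMirn378 cells *Sntb2* gave -0.57 and -0.32 untreated, which were not called. In the test of whether the BMP2 effect differed between the lines, *Sntb2* was called lower at d3. It was 1 of 13 partners, against 2.00% of all genes in either direction.

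ε-Sarcoglycan, the broadly expressed relative of α-sarcoglycan, was higher with BMP2 than without it, where *Sgca* was lower. Over d0, both were called higher with BMP2 in pMirn0 cells. *Sgce* had a mean of 1123 at d0 and 1406 and 1273 untreated, against 2877 and 2677 with BMP2. BMP2 over untreated was 1.03 at d3 and 1.07 at d6 in pMirn0 cells on the log2 scale, where *Sgca* gave -1.25 and -1.77. Utrophin, the widely expressed relative of dystrophin, rose at d3 untreated. *Utrn* went from 2083 to 3685 (log2 0.82, adjusted p = 1.07e-08) and was lower with BMP2 at d6 (log2 -1.10). Of the laminin chains among the partners, α2 (*Lama2*) had a mean of 521 at d0. It rose to 1166 and 911 untreated, and to 997 at d3 with BMP2. β1 (*Lamb1*) fell from 4418 to 2462 at d6 untreated and to 2495 at d6 with BMP2.

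**Figure D5:**
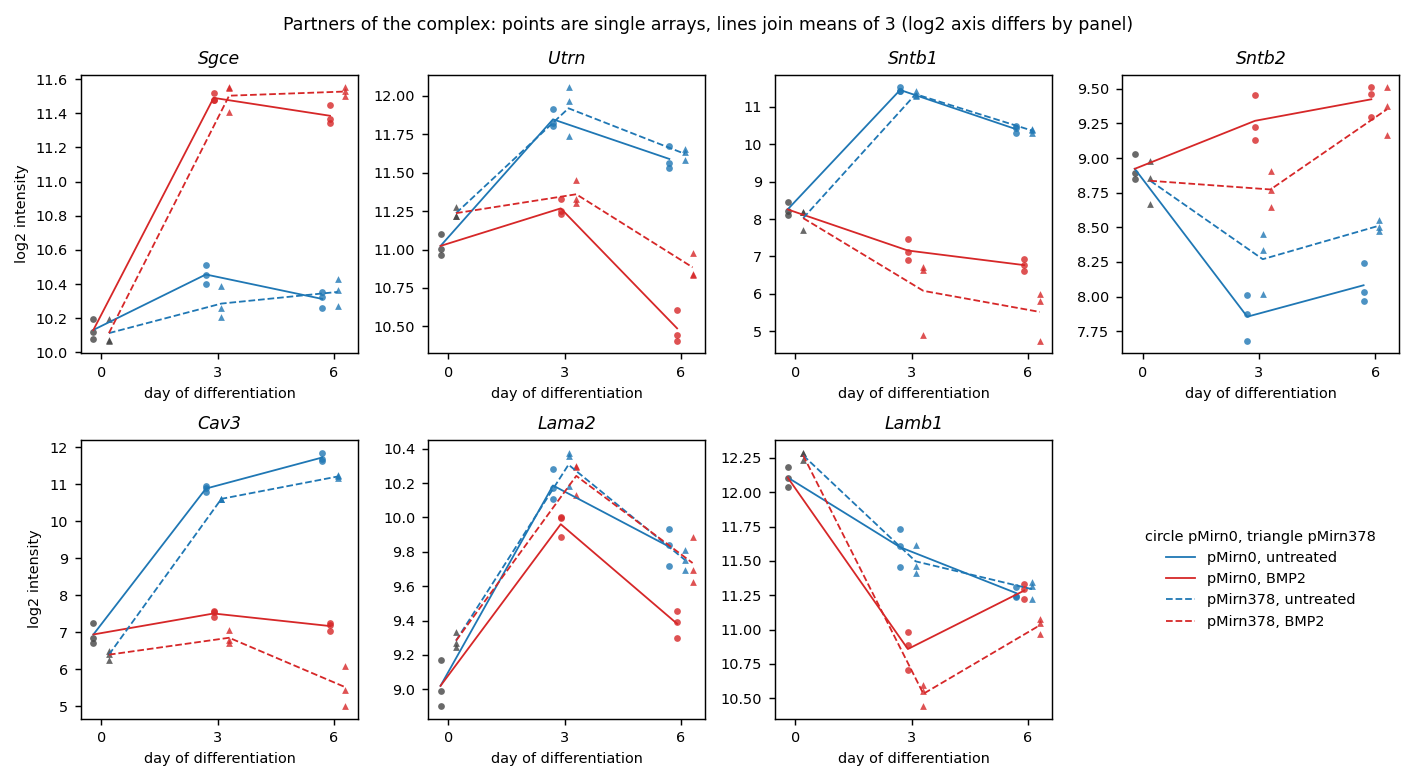
Log2 intensity (y axis, scale differs by panel) of 7 partners against day of differentiation (x axis). Points are single arrays and lines join means of 3, with blue for untreated, red for BMP2, solid lines for pMirn0 and dashed for pMirn378. *Sgce* is higher with BMP2 (2877 against 1406 at d3 in pMirn0 cells), and *Sntb1* and *Cav3* are higher untreated.

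The enzymes that build the laminin-binding sugars of dystroglycan were counted in the same way. Of 14 measured, 2 rose and 1 fell untreated at d6 in pMirn0 cells, and 4 rose and 1 fell with BMP2, against 24.2% and 22.1% of all genes in either direction. The median log2 differences were -0.13 and 0.11. *Dpm1*, of the dolichol-phosphate mannose synthase, rose in both cultures (log2 1.45 untreated and 1.32 with BMP2 at d6), as did the O-mannose kinase *Pomk* (0.88 and 1.08). The O-mannosyltransferase *Pomt1* fell in both (-0.69 and -1.09), while its partner subunit *Pomt2* rose with BMP2 (0.90) and gave -0.13 untreated (adjusted p = 0.574). The transferase *B3galnt2* rose with BMP2 (0.76). Between the lines, 0 of 14 were called at any day or treatment. The shares of all genes were 0.720% and 0.247% in either direction at d3 and d6 untreated. With BMP2, 1.87% and 1.31% of all genes were called lower. In the line by day interaction with BMP2 at d6, a test chosen after the values were seen, *B4gat1* was called higher.

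Of 9 muscle state genes, which mark the myogenic course itself, 7 rose and 1 fell untreated at d6 in pMirn0 cells (median log2 2.02), and 1 rose and 7 fell with BMP2 (median -1.09), against 24.2% and 22.1% of all genes called in either direction. *Myf5* was the 1 that fell untreated and the 1 that rose with BMP2. Untreated at d6, *Mef2c*, a transcription factor of muscle genes, rose by 4.81, the creatine kinase *Ckm* by 4.26, embryonic myosin *Myh3* by 2.50, titin (*Ttn*) by 2.29, myogenin (*Myog*) by 2.02 and skeletal actin (*Acta1*) by 0.99. With BMP2, *Ttn* and *Ckm* fell below d0 (log2 -2.22 and -2.11), at a day when *Sgca* and *Sspn* stood above it (1.23 and 1.67). At d6 with BMP2, 6 of the 9 were lower in pMirn378 cells, where 1.31% of all genes were, among them *Myh3* (-2.26), *Myog* (-0.92), *Acta1* (-0.88) and *Mef2c* (-0.66). *Ckm* gave -0.06 (adjusted p = 0.92).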

How the data were processed

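RNA of 30 cultures was hybridised to Affymetrix Mouse Genome 430 2.0 arrays. The authors' methods name RMA with quantile normalization (R 2.4.1). The deposited values are linear intensity whose array medians differ (68.0 to 82.7), so they do not look quantile-normalized, and which step they represent is unknown. Log2 of these values was fitted over all 45101 probe sets with limma 3.58.1 in R 4.3.3 (10 group means, eBayes, 20 residual degrees of freedom), with adjustment within each comparison. Calls needed an adjusted p under 0.005 and a log2 difference beyond 0.6. Error is the standard error or confidence interval of that fit, and the number of arrays (3 per group) limits precision. Of all values 0.407% were under 1, which widens the log2 spread of dim probe sets. Probe sets were named from the platform annotation: 34958 had 1 symbol, 932 several and 9211 none. Of each list, the genes named were those called first in pMirn0 cells at d6 or between lines with BMP2, at most 6, by smallest adjusted p, plus *Utrn*, *Sgce* and *Lama2*, and for each member the 3 genes of highest r. The members and lists were chosen with earlier results of these data known. List symbols without a probe set of their own were not analysed here. Sequences are from RefSeq (GRCm38.p6). The fit was tested on simulated data. Alternatives were a replicate block, a dim filter, trended and robust eBayes, quantile normalization, scaling, an offset of 16, a floor of 50, other probe sets and leaving out each array.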

Additional observations from a re-analysis of the deposited data

Results flagged for a closer look

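The change of *Dtna* from d0 with BMP2 differed between the lines, with a log2 interaction of -1.25 at d3 and -1.22 at d6. This held on the brightest of the 6 other probe sets (-1.12 and -0.83), and the other 5 were not called. The change of *Sgca* from d0 differed between the lines untreated, by -0.81 at d3 and -1.20 at d6, and with BMP2 by -1.09 at d6. These 5 values come from tests chosen after the data were seen, and they share the d0 arrays of both lines, so they are not separate observations.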

How the results depend on the processing

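Of 189 comparisons of members, 56 were called. All 56 were called again with the replicate number as a block, with the dim filter, with trended and robust eBayes, with quantile normalization, with scaling and with the offset of 16, and 54 with the floor of 50. The replicate block added 1 call, *Dmd* at d3 over d0 in untreated pMirn0 cells (adjusted p = 0.00469), and lost none. Of 63 same-numbered pairs in 21 comparisons, 11 had a correlation over 0.1 (-0.135 to 0.234). Every pair exceeded it in 1 comparison, BMP2 over untreated at d6 in pMirn378 cells (0.155 to 0.196), where the replicate block changed no call. Scaling moved the median of all genes by over 0.1 in 1 comparison, BMP2 over untreated at d3 in pMirn0 cells (-0.104). Leaving out 1 array at a time kept 349 of 366 calls, and the 17 lost lay in *Dmd*, *Sgcd* and the *Sgca* interaction at d3 untreated.

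For d6 over d3 untreated, 0 members were called in either line, but *Dmd* was called (1 member) in both lines with the offset of 16 and with the floor of 50. For the line by BMP2 interaction at d6 the count was 1 (*Dtna*) with the dim filter, with trended and robust eBayes and with the floor of 50, and 0 to 1 with an array left out, being 1 without pMirn0 d6 untreated replicate 3. For the line by day interaction at d3 untreated it was 0 to 1 with an array left out, being 0 without pMirn0 d0 replicate 2, pMirn0 d3 untreated replicate 1 or 3, pMirn378 d0 replicate 3, or pMirn378 d3 untreated replicate 1 or 2. The cause of these shifts was not tested.

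Other probe sets kept 82 of 123 calls, and *Dtna* had the opposite sign on some. Where the brightest probe set was called, the opposite values were not. At d3 over d0 in untreated pMirn0 cells *Dtna* gave -0.23 on 1427588_a_at (adjusted p = 0.382) and -0.38 on 1453625_at (0.848). BMP2 over untreated at d3 in pMirn0 cells gave 0.089 on 1427588_a_at (0.789). The line by day interaction with BMP2 at d3 gave 0.16 on 1453625_at (0.977). The remaining opposite values were called where the brightest probe set was not. At d6 over d0 with BMP2 in pMirn0 cells *Dtna* gave -0.86 on 1419223_a_at (brightest means 451 and 430). At d6 over d0 in untreated pMirn378 cells it gave 1.76 on 1425292_at, 1.53 on 1419223_a_at and 1.39 on 1426066_a_at (brightest means 568 and 573). Dim signal limits *Dmd* and *Sgcd*: probe sets below the median had a median residual SD of the fit of 0.846 in log2 units, against 0.145 at or above it.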
